A study of Mus musculus with 3 samples.

Results

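The gene-named piRNA precursor transcripts of mouse testis were 249 of the 50081 models in the study's assembled transcript table. They were chosen by their code alone, which begins with PG_P, and each carries the symbol of a known gene after the prefix pi- and a serial number. They fell under 114 gene names, called hosts here, on 19 chromosomes, with 56 names on the plus and 58 on the minus strand and none on X or Y. RefSeq-derived models of the same symbol were in the table for 112 of the names, 144 models in all, and 245 of the 249 piRNA models could be set against them.

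The study mapped transcript ends in testes of wild-type C57BL/6J mice and is known for the transcription factor A-MYB. It read capped 5′ ends by CAGE in mice aged 10.5 days post partum and in adult mice, and polyadenylated 3′ ends by PAS-Seq in adult mice. Each group had 1 library, made from total RNA. No allele or treatment separates these groups, and they differ by age and assay alone. The table gives 1 set of starts, ends and exons on the mm9 build for the whole series, with no value per library, so depth is unknown and the ages could not be compared. No piRNA reads were analysed here, so the label piRNA precursor rests on the names in the table.

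PIWI-interacting RNAs (piRNAs) are small RNAs that guide PIWI proteins, chiefly against transposons, in germ cells. They are cut from long single-stranded precursors that are transcribed by RNA polymerase II, capped, often spliced and polyadenylated. In the testis some precursors come from loci between genes, while others are the mRNAs of ordinary genes, whose piRNAs derive mainly from the part after the coding region. For such genic precursors the place of the 3′ end and the length of the last exon set how much sequence is open to piRNA production.

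Most of the gene-named models began within 50 nt of a RefSeq start of the host, so the RefSeq promoter is also theirs at that resolution. Promoters are shown for hosts whose models stand for the forms described below, a last exon that runs on (D10Wsu102e), an end inside an intron (Phf20), a retained host intron (Shank3) and a shortened last exon (Tfcp2l1, pi-Tfcp2l1.3). They are RefSeq sequences of the GRCm38.p6 build, 300 bases each, from 250 before to 50 after the start, all on the plus strand, at chr10:83359971-83360270, chr2:156196397-156196696, chr15:89499358-89499657 and chr1:118627695-118627994. Capitals mark AACNG, the core of MYB binding sites, on either strand (CNGTT).
D10Wsu102e: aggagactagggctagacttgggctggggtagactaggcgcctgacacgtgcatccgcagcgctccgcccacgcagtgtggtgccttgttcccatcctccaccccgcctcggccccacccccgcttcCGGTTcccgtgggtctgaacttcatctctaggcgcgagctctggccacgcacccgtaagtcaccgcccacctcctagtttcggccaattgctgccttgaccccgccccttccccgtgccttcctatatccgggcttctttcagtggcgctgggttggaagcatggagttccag
Phf20: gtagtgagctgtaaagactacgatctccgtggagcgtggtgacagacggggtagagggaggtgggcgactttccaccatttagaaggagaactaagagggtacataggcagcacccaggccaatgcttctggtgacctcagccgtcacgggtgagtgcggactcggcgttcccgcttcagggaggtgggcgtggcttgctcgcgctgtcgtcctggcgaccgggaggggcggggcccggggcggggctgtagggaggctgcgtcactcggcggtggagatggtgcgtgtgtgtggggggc
Shank3: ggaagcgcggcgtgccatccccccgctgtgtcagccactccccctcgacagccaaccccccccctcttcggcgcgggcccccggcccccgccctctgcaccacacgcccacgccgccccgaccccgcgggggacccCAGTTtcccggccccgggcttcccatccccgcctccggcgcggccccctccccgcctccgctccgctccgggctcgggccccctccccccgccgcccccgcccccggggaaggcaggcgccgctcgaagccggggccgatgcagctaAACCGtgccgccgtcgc
Tfcp2l1: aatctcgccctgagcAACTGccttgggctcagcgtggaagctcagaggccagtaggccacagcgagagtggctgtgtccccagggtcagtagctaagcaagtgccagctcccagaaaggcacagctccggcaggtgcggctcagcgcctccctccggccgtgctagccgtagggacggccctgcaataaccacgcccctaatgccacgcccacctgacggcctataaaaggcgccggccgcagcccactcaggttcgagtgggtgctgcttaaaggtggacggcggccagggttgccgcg
The motif matched 1 time each in D10Wsu102e and Tfcp2l1, not at all in Phf20 and 2 times in Shank3. It was present in 75 of 100 host promoters (75%) that could be matched by symbol, for 84 of the 114 hosts, against 26377 of 32851 promoters in the whole RefSeq table (80.3%). The stricter AACTG, with CAGTT on the other strand, was in 42% of host promoters against 44.8% of all. Hosts thus did not hold these letters more often than promoters at large. The match is by gene symbol, and whether the GRCm38.p6 start of a host is its start in the mm9 table was not tested.

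Host genes also carried 7 microRNA genes on the same strand. Ctdsp2, a phosphatase of RNA polymerase II, held 2 of them: Mir26a-2 in an intron, and Mir546 inside an exon of pi-Ctdsp2.1 that covers all of its 121 nt. Mir32 lay in an intron of pi-D730040F13Rik, and 44 nt of Mir700 lay in an exon of pi-Rcan3.1. The remaining ones, Mir3473d, Mir3971 and Mir5128, lay in introns of Ddx19b, Slc43a2 and Strbp. Mature RefSeq sequences are given with the seed (bases 2 to 8) in capitals. They are those of the exonic microRNA genes and of the conserved intronic miR-26a and miR-32. Since 44 of the 79 nt of Mir700 are exonic, its mature sequences need not both lie in the precursor, and which of them does was not determined.
mmu-miR-546: aUGGUGGCacggaguc
mmu-miR-700-5p: uAAGGCUCcuuccugugcuugc
mmu-miR-700-3p: cACGCGGGaaccgaguccacc
mmu-miR-26a-5p: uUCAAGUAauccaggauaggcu
mmu-miR-32-5p: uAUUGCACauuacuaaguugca
No seed is shared among these sequences, and whether the precursors yield these microRNAs was not measured here.

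The last exons of the piRNA models were long, and so were those of their hosts' RefSeq models. The median last exon was 3511 nt in the 249 piRNA models (quartiles 1175 and 5575), 3668 nt in the 144 host RefSeq models (2018.75 and 5269) and 997 nt in the 27887 RefSeq models of other symbols (477 and 1970). The last exon made up a median of 70.8% of the spliced length in piRNA models, against 74.8% in host RefSeq models and 51.4% in RefSeq models of other symbols. The median spliced length was 5275 nt in piRNA models, 5172.5 nt in host RefSeq models and 2362 nt in RefSeq models of other symbols. Exon number hardly differed, with a median of 8 exons in piRNA models, 8 in host RefSeq models and 7 in other RefSeq models. Models of a name share a gene and are not replicates, so these are descriptions of 1 table with no test.

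**Figure D1:**
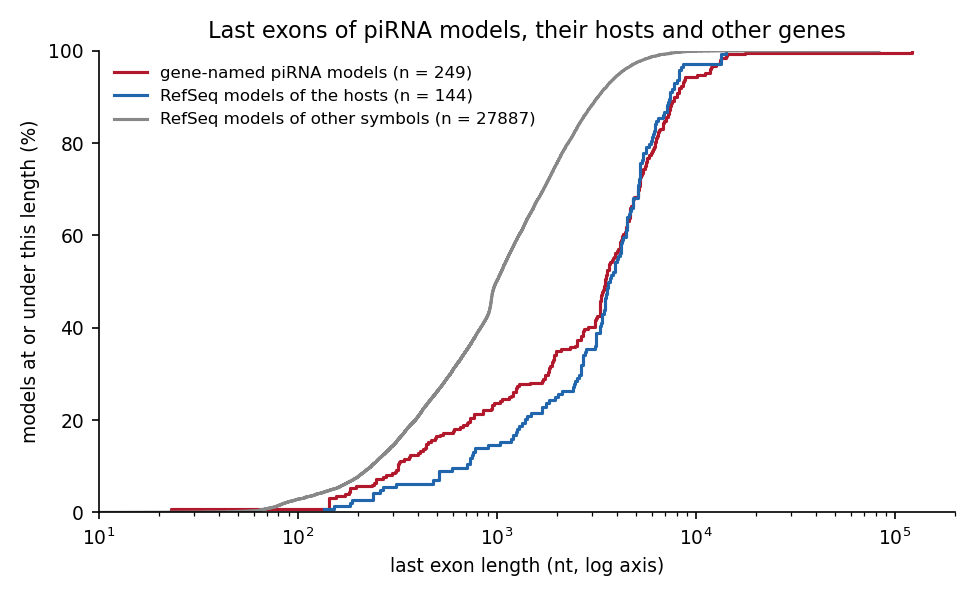
Cumulative share of models (percent) against last exon length (nt, log axis) for gene-named piRNA models (red, n = 249), RefSeq models of their hosts (blue, n = 144) and RefSeq models of other symbols (grey, n = 27887). The red and blue curves run close together above their medians of 3511 and 3668 nt, far right of the grey median of 997 nt, while the red curve rises earlier among short last exons.

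Over the 112 names with a RefSeq model, the longest last exon had a median of 5208 nt among piRNA models (quartiles 3879 and 7084) and 3596.5 nt among host RefSeq models (1818 and 5405.75). It exceeded that of the host by more than 50 nt in 40 names, lay within 50 nt of it in 68 and was shorter in 4. Where it was longer, the ratio of the lengths had a median of 4.40 (quartiles 2.43 and 8.30). These values are the longest among 245 piRNA and 144 RefSeq models, and 88 hosts had 1 RefSeq model. A longest value taken over more models tends to be larger, and the number of models was not matched. Over all models the median last exon was 3511 nt against 3668 nt. Last exons of at least 5000 nt occurred in 79 of the 249 piRNA models (31.7%), against 46 of the 144 host RefSeq models (31.9%) and 792 RefSeq models of the whole table (2.83%). Last exons of at least 10000 nt occurred in 14 piRNA models (5.62%), against 4 host RefSeq models (2.78%) and 34 RefSeq models of the whole table (0.121%).

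Splicing of the host was largely kept. Of 239 multi-exon models with a host, 176 (73.6%, exact 95% interval 67.6 to 79.1) had no intron outside the RefSeq models of the host, compared with 40% of 8085 multi-exon Cufflinks models of other symbols. These Cufflinks models, whose identifiers have the form that the Cufflinks assembler gives, serve as the background throughout. They are forms listed beside the RefSeq models and not a neutral sample of transcripts. Of 1066 distinct introns in piRNA models, 982 (92.1%) were host introns with the same coordinates, and 982 of 1004 host introns (97.8%) were used by a piRNA model. In 219 of the 239 models (91.6%) the last exon opened at the acceptor of a host last exon. Intervals cover counting error only and take each model or name as an independent draw. Models of a name share introns and ends, so intervals over models are likely too narrow.

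The 84 introns outside the host came from 34 names. Ip6k1, an inositol hexakisphosphate kinase, gave 13 of them, and 1700016M24Rik and Fam53b gave 6 each. Nsd1, a histone methyltransferase, gave 5, and Nr2c2, an orphan nuclear receptor, gave 4. The 22 host introns in no piRNA model belonged to 12 hosts. Pou6f1, a POU-domain transcription factor, lacked 4 of its 5 introns because its 1 piRNA model has only 2 exons, and Eya3, a transcriptional coactivator, lacked 4 of 20 introns.

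At a tolerance of 50 nt, 127 of 245 piRNA models (51.8%) had an end away from the RefSeq end and 108 (44.1%) a start away from the nearest RefSeq start, and at 10 nt these were 137 (55.9%) and 198 (80.8%). Of the 245 models, 51 (20.8%, interval 15.9 to 26.4) ended more than 50 nt beyond the furthest RefSeq end of the host, 118 (48.2%) within 50 nt of it and 76 (31.0%, interval 25.3 to 37.2) short of it. Among 8565 Cufflinks models of other symbols, 24.4% ended beyond and 46.6% short of the RefSeq end, so neither share was above this background when counted over models. Counted over names, 36 of 112 (32.1%) had their furthest end beyond the host. The background was not counted by symbol, so it cannot be set against the share of names. The whole structure of a RefSeq model, with its introns and both ends within 50 nt, was found in 68 of 245 models (27.8%). Both start and end lay within 50 nt of the host in 69 models, and the start alone in a further 68, of which 41 ended short and 27 ended beyond.

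**Figure D2:**
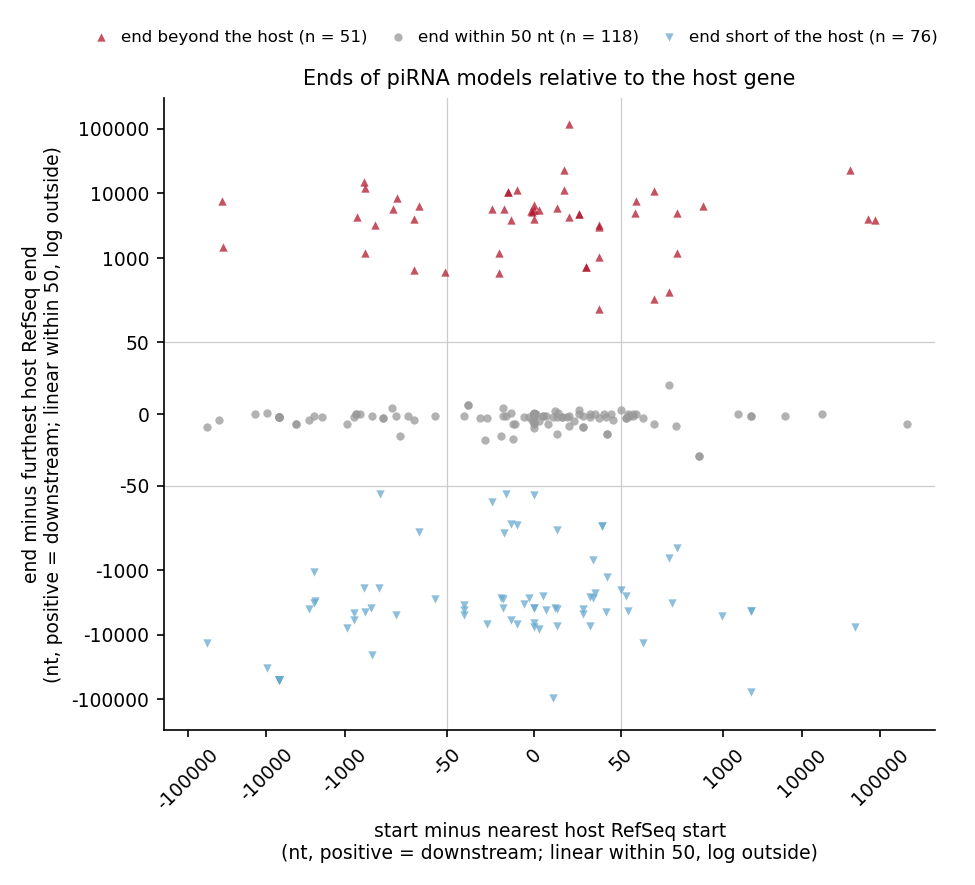
Start of each of 245 gene-named piRNA models minus the nearest host RefSeq start (x axis, nt) against its end minus the furthest host RefSeq end (y axis, nt), linear within 50 nt and log outside. Red triangles end beyond the host (51), grey points within 50 nt (118) and blue triangles short of it (76), and the largest vertical distances are 119247 nt beyond and 95614 nt short.

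Models that ended beyond the host did so by a median of 4999 nt (quartiles 2276.5 and 7164.5, range 165 to 119247). In 43 of the 51 the host's own last exon simply ran on, and in 8 the end lay in a new last exon. They had 36 names, whose hosts had shorter RefSeq last exons than the other hosts: the longest piRNA last exon of these names had a median of 6098.5 nt against 1583.5 nt in the hosts' RefSeq models. In the 76 names without such an end both medians were long, 4827 nt in piRNA models and 4661 nt in host RefSeq models. The 36 names were picked by an end beyond the host, so the gap between their piRNA and RefSeq medians follows in part from that choice. Their longest piRNA last exons had quartiles of 4638.25 and 8186 nt and reached 122379 nt. RefSeq last exons of the other hosts had quartiles of 3463.25 and 6175.5 nt and reached 14239 nt, so the ranges overlapped in part.

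D10Wsu102e was the extreme case. Its piRNA models began 20 nt inside the RefSeq start and shared all 3 introns, and their last exons were 3131 and 122379 nt, against 3132 nt in RefSeq. The longer model, at chr10:82822986-82950827, shared 636 exonic nt with Aldh1l2 on the opposite strand, and its end lay inside that gene. Kcng3, a potassium channel subunit, had 1 piRNA model of 2 exons with a last exon of 14356 nt, against 2423 nt in RefSeq.

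Several signalling and transcription genes had the same form. Acvr2b, an activin receptor, had a last exon of 8648 nt in its piRNA model and 240 nt in RefSeq. Zyg11a, a substrate receptor of a ubiquitin ligase, had 6880 nt in its piRNA model against 188 nt in RefSeq. Foxo3, a forkhead factor, had last exons of 4450, 4450 and 319 nt in its 3 piRNA models against 510 nt in RefSeq, so both sides of the RefSeq end were used. Elk4, an ETS-domain factor, had 8032 nt against 2132 nt, and 1015 nt of that model were shared with Mfsd4 on the opposite strand. Eif2c2, now named Ago2, encodes an Argonaute protein of the microRNA and siRNA pathway, and its piRNA model of 19 exons had a last exon of 11168 nt against 5392 nt in RefSeq.

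Further hosts had a RefSeq-like short form beside an extended one. Cbl, a ubiquitin ligase of receptor tyrosine kinases, had last exons of 8759, 2479 and 467 nt in its piRNA models, against 2476 nt in RefSeq, so ends lay beyond, at and short of the host. Klhl11, a substrate adaptor of a ubiquitin ligase, had 7321 and 1834 nt against 1834 nt, and Fbxl18, an F-box protein, had 5575 nt in 2 models and 732 nt in the third against 732 nt. Uhmk1, a kinase with an RNA-recognition motif, had 6583 and 495 nt against 758 nt. Zfp382, a zinc finger protein, had 7485 and 1682 nt against 1770 nt. In Eif4ebp2, which encodes an inhibitor of cap-dependent translation, both piRNA forms were longer than RefSeq, with 5337 and 1991 nt against 1332 nt, and the same held in Hinfp, a zinc finger activator of histone genes, with 4142 and 1940 nt against 908 nt. Trim71, a repressor of mRNAs in stem cells, Ssh1, a cofilin phosphatase, and Mafg, a small MAF factor, had only extended forms, of 6875, 6366 and 4609 nt against 2824, 1247 and 1384 nt in RefSeq.

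The 8 models with a new last exon came from 6 hosts, and each but pi-Igsf9b.1, which begins after the host, also held host exon sequence. Zbtb37, a BTB and zinc finger protein, ended 14834 nt beyond the host in a last exon of 6570 nt, while its other 2 models ended 1884 nt short of the host. Ppp1r12b, a regulatory subunit of myosin phosphatase, ended 11278 nt beyond in a last exon of 5831 nt. Hmbox1, a homeobox protein, had 2 models with the same end, 10616 nt beyond the host. In pi-Hmbox1.2 the host last exon ran on to 12097 nt, and in pi-Hmbox1.1 an intron removed the middle, leaving a last exon of 1818 nt. The remaining hosts were Igsf9b, Luzp1 and Tktl2.

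Models that ended short of the host did so by a median of 3887 nt (quartiles 2214.5 and 6873.25), and 64 of the 76 ended inside a host last exon. In the 61 multi-exon models among these, the end lay a median of 767 nt after the host acceptor (quartiles 402 and 1757), with 24.6% of the host last exon used (7.58 and 59.0). Within 500 nt of the acceptor lay 24 of these ends. Ing5, a chromatin protein that binds methylated histone H3, gave the shortest: last exons of 23 nt in 2 of its piRNA models and 3822 nt in the third, against 3820 nt in RefSeq. The last exon of pi-Lpp.2 was 182 nt, against 13383 nt in pi-Lpp.1 and 13386 nt in RefSeq. Lpp encodes a focal adhesion protein.

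Elsewhere short ends were few. There were 7 before the host gene, 3 inside a host intron and 2 in an inner host exon. Those in introns were pi-Phf20.2, pi-Nsd1.3 and pi-1700016M24Rik.3, which ended 95614, 77477 and 20563 nt short. Those in inner exons were pi-Luzp1.3 and pi-Il17rd.2, 8247 and 7195 nt short. The ends before the host were 6 models of Ip6k1 and pi-Tmem194.4.

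Short and long ends were often paired within a name. Of the 82 names with at least 2 models, 64 (78.0%, interval 67.5 to 86.4) had ends more than 50 nt apart, compared with 59.6% of 8550 other symbols with at least 2 RefSeq or Cufflinks models. The first share counts piRNA models alone and the second pools other kinds. The number of models per symbol was not matched, so the shares are not like for like. RefSeq models of the hosts by themselves gave more than 1 end in 6 of 112 hosts (5.36%), against 3.22% of other symbols. Both of these shares include symbols with 1 RefSeq model, which cannot have more than 1 end. Only 24 of the 112 hosts had more than 1 RefSeq model, so the 5.36% cannot be set against the 78.0%. In 57 of the 64 names (89.1%, interval 78.8 to 95.5) at least 2 ends shared 1 last exon acceptor, so that the same splice site led to last exons of different length. This share was not computed for other symbols. The short form had a median of 653 nt (quartiles 367 and 1757) and the long form 5253 nt (4159 and 7093). Their ratio had a median of 8.06 (3.37 and 14.96), from 1.09 in Zfp346, where the forms hardly differed, to 166 in Ing5. More than 1 start was less common, in 34 of 114 names (29.8%).

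**Figure D3:**
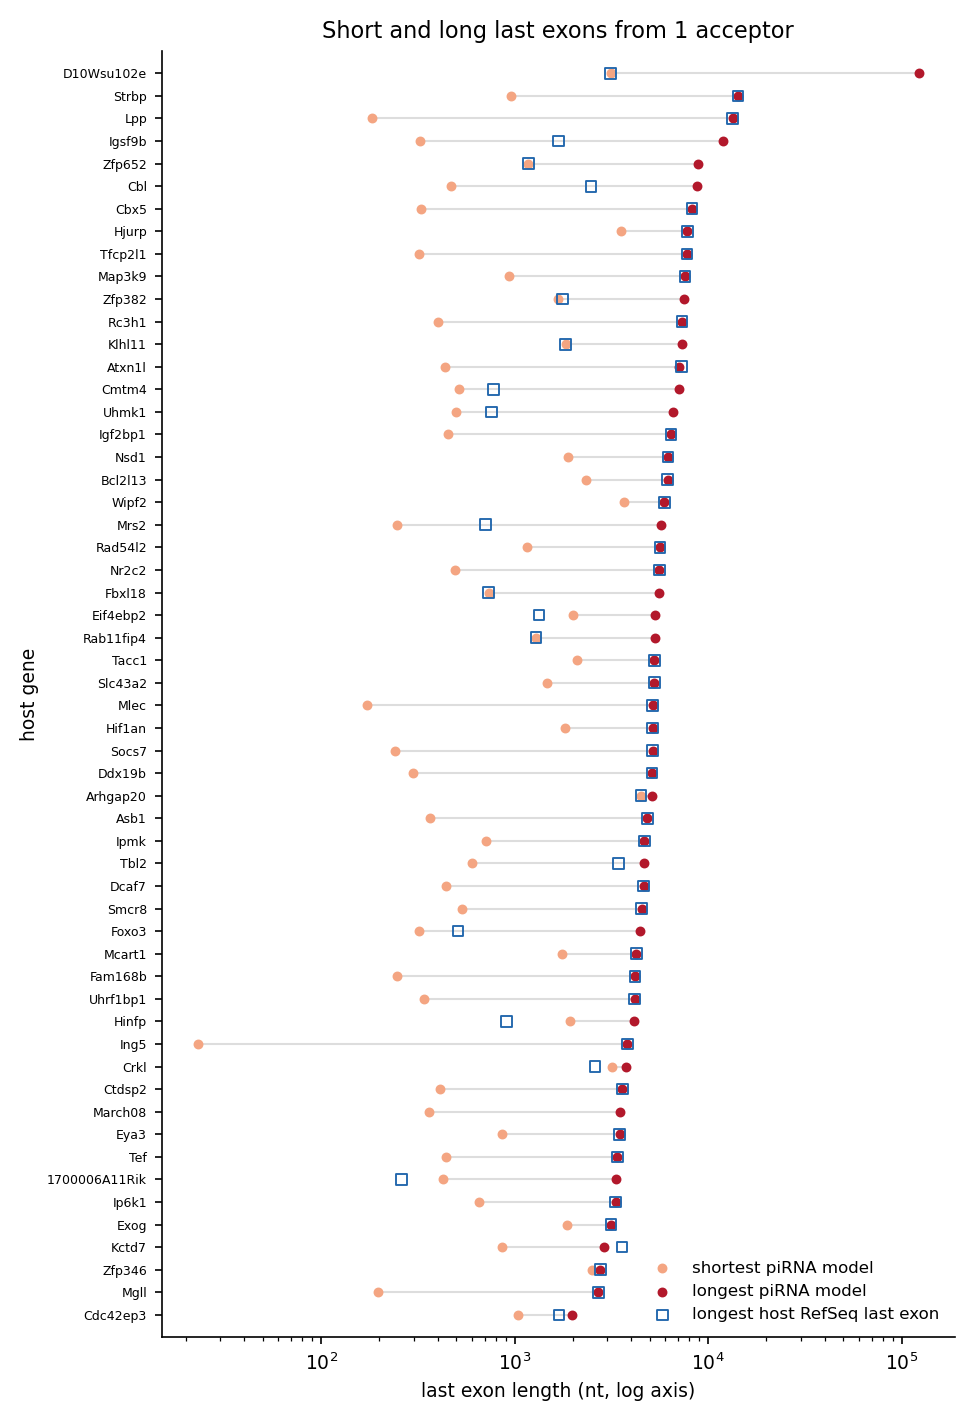
Shortest (light) and longest (dark red) last exon from 1 acceptor in piRNA models of 56 of the 57 names, with the longest RefSeq last exon of the host (open blue squares), in nt on a log axis. In most rows the square lies on the dark point, and in rows such as D10Wsu102e (122379 against 3132 nt) and Zfp652 (8812 against 1175 nt) it lies far to its left.

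In most of these names the long form was the RefSeq form. Names with ends at the RefSeq end and short of it, but none beyond, numbered 39. Another 6 had ends at and beyond the RefSeq end, 6 had ends short and beyond, and 4 had all of these. A single kind of end was seen in 32 names at the RefSeq end, in 20 beyond it and in 5 short of it. Whether an end lay near the end of a Cufflinks model of the table differed between the kinds: 28 of 51 ends beyond the host (54.9%), 25 of 118 at the host end (21.2%) and 2 of 76 short of it (2.63%). The 2 short ones, pi-Ing5.2 and pi-Ing5.3, have the same end. The share was not computed for ends of other genes, so it does not measure the support for an end.

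Names with many models show the pattern in full. Mlec, which encodes the endoplasmic reticulum lectin malectin, had 4 models with the same start and the same 4 introns, and last exons of 5163, 1749, 972 and 173 nt, against 5164 nt in RefSeq. Igf2bp1, an mRNA-binding protein, had last exons of 6427, 6427, 1826 and 453 nt, against 6429 nt in RefSeq. Cbx5, which encodes heterochromatin protein HP1 alpha, had 8239 nt in 3 models and 326 nt in the fourth, against 8246 nt in RefSeq. In each of these the longest form stopped at the RefSeq end and all others stopped before it.

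Pairs of this kind recurred across hosts with 2 or 3 models. Rc3h1, which encodes roquin, an RNA-binding repressor of mRNAs, had last exons of 7327 and 402 nt in piRNA models of 20 exons each, against 7330 nt in RefSeq. Map3k9, a kinase of the JNK pathway, had 7564 and 938 nt against 7574 nt. Uhrf1bp1 had 4159 and 341 nt in models of 21 exons, against 4159 nt, and Rad54l2, a helicase, had 5629 and 1156 nt in models of 22 exons, against 5631 nt. Hif1an, the asparaginyl hydroxylase of hypoxia-inducible factor, had 5159 and 1814 nt against 5161 nt. In each of these hosts both models had the same start and the same number of exons, and the last exon alone set them apart.

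Other names with 4 or 5 models went past the RefSeq end or stayed at it. Mrs2, a mitochondrial magnesium channel, had last exons of 5705, 5705, 1917 and 247 nt, against 706 nt in RefSeq. Tbl2 had 4653, 3447, 3447 and 604 nt, against 3443 nt. Tacc1, a centrosomal coiled-coil protein, had 5268 nt in 3 models, 4191 and 2094 nt, against 5269 nt. Mgll, the monoacylglycerol lipase, had 2707 nt in 3 models and 197 nt in the remaining one, against 2710 nt. Of these 4 hosts only Mrs2 and Tbl2 had ends beyond RefSeq, by 4999 and 1210 nt at most.

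Starts lay within 50 nt of the nearest host RefSeq start in 137 of 245 models (55.9%), upstream in 66 (26.9%) and downstream in 42 (17.1%). The background was 33.6% upstream and 40.9% downstream among Cufflinks models of other symbols. Upstream starts were off by a median of 764 nt (range 53 to 56085) and downstream starts by a median of 236 nt (range 58 to 218408). Of the downstream starts, 29 lay in a host exon, 12 in a host intron and 1 after the host. In 58 of 112 names every start was within 50 nt of RefSeq, and in 30 names none was.

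The furthest upstream starts joined new leading exons to the host. Both models of Strbp, which encodes an RNA-binding protein of spermatids, began 56085 nt upstream of the RefSeq start and had 18 exons, against 17 in RefSeq. pi-Fam53b.1 began 39432 nt upstream with 10 exons, and pi-Fam53b.2 began 131 nt upstream with 5 exons, as many as each RefSeq model. pi-Fam53b.1 shared 816 of the 1077 exonic nt of Mettl10 on the same strand. pi-Tet3.2 began 13838 nt upstream and pi-Tet3.1 70 nt downstream, both with 11 exons and a last exon of 7452 nt, the length in RefSeq. Tet3 oxidises methylated cytosine in DNA.

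Zfp652, a zinc finger gene, combined both ends. pi-Zfp652.2 had a start 36435 nt upstream, a first exon of 36976 nt and a spliced length of 46197 nt, and it contained the whole 3188 nt of the non-coding RefSeq gene B130006D01Rik. pi-Zfp652.1 shared its last exon of 8812 nt, and pi-Zfp652.3 had the RefSeq last exon of 1175 nt. Their spliced lengths were 9686 and 2589 nt, against 2665 nt in RefSeq. The median first exon was 230 nt in multi-exon piRNA models and 223 nt in host RefSeq models.

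The furthest downstream starts lay deep inside large genes. pi-Wdfy3.1 began 218408 nt into the gene and had 8 exons, while pi-Wdfy3.2 had 67 exons like RefSeq, and both had a last exon of 3322 nt. Wdfy3 encodes an adaptor of selective autophagy. pi-Foxo3.1 began 84732 nt into its gene in a host intron and had 2 exons, against 4 in RefSeq. pi-Rab11fip4.1, from an effector gene of Rab11, began 69501 nt inside and ended 4010 nt beyond the host. pi-Tfcp2l1.2 began 47637 nt inside and had 2 exons and 364 nt in all, the shortest spliced length among the 249 models. Tfcp2l1 is a transcription factor of pluripotent cells.

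Ip6k1 had 14 models, the most of any name, on chr9:107898074-107951111. pi-Ip6k1.1 and pi-Ip6k1.5 began 3 nt upstream of the RefSeq start, had its 6 exons, and had last exons of 3318 and 653 nt, against 3320 nt in RefSeq. The other 12 models began 6905 nt upstream, and 6 of these spliced from new exons into the second exon of the host and ended 2 nt short of the RefSeq end. Another 6, with 6 to 10 exons and 1300 to 1793 spliced nt, ended 49109 nt short of that end, before the host begins, and shared no exon base with it. Among all 245 models 8 shared no exon base with a host RefSeq model, and the remaining 2 were pi-Igsf9b.1 and pi-Tmem194.4.

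**Figure D4:**
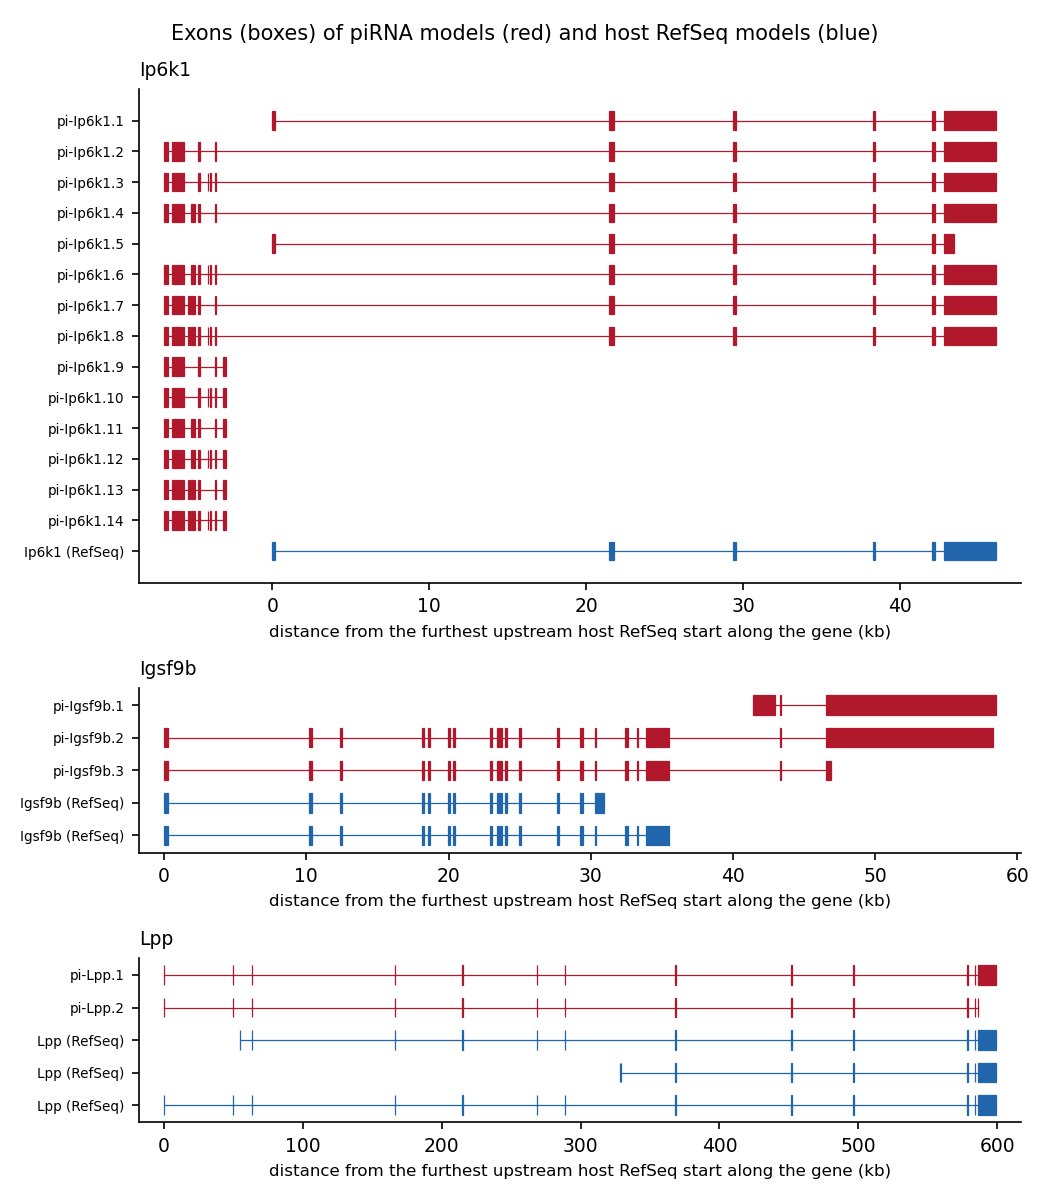
Exons (boxes) and introns (lines) of piRNA models (red, above) and host RefSeq models (blue, below) of Ip6k1, Igsf9b and Lpp, by distance in kb from the furthest upstream RefSeq start along the gene. The figure shows 12 of 14 Ip6k1 models starting upstream of the host, the Igsf9b models ending beyond it, and pi-Lpp.1 and pi-Lpp.2 differing only in a last exon of 13383 or 182 nt.

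Igsf9b, a synaptic adhesion protein of the immunoglobulin superfamily, extended downstream. pi-Igsf9b.2 and pi-Igsf9b.3 kept the start and the introns of the longer RefSeq model, added 2 introns, and ended 22738 and 11329 nt beyond it in last exons of 11732 and 323 nt, against 1686 nt in RefSeq. pi-Igsf9b.1 began after the host, 41407 nt from its start, had 3 exons and a last exon of 11960 nt, and contained the whole 4859 nt of the non-coding RefSeq gene AI414108. The last exons of the 3 models opened at 1 acceptor.

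Host introns were seldom retained. The last exon held a whole host intron in 5 of 245 models (2.04%, interval 0.666 to 4.70), compared with 2.71% of Cufflinks models of other symbols, and any exon did so in 8. pi-Shank3.3, from the gene of a postsynaptic scaffold protein, ended at the RefSeq end but had a last exon of 12635 nt, against 2526 nt in RefSeq, because an intron of 7852 nt was retained. pi-Ccrn4l.2 retained an intron of 22517 nt of the nocturnin gene, a circadian regulator, in its first exon and had 25071 spliced nt, against 2554 nt in pi-Ccrn4l.1 and 3069 nt in RefSeq. In pi-Abl2.2 and pi-Dnmt3a.2 the intron retained relative to 1 RefSeq model was exonic in another, so the last exon is an annotated one. Last exons more than 50 nt longer than the longest in RefSeq were present in 54 of 245 models (22.0%), against 26.6% of models in the background. By name they were present in 40 of 112, a count not made for the background.

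Only 6 models had a single exon. pi-Phf20.2 began 11 nt inside the RefSeq start and ran unspliced for 17682 nt, of which 140 nt were host exon and 17542 nt host intron, while pi-Phf20.1 had the 18 exons of RefSeq. Phf20 encodes a chromatin reader. pi-1700016M24Rik.3 ran unspliced for 10180 nt, with 8794 nt of host intron. pi-Exoc8.1 and pi-Exoc8.2 had 4665 and 7477 nt, against 7407 nt in the single exon of RefSeq. Exoc8 is a subunit of the exocyst. pi-Hist1h1a.1, of a linker histone gene, had 679 nt against 747 nt, and pi-Smcr8.2 had 3527 nt against 3543 nt in a single-exon RefSeq model of that gene.

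Both names without a RefSeq model of the same symbol overlapped a RefSeq gene under another symbol. D730040F13Rik is an older symbol of Tmem245 in the RefSeq gene table. Both of its piRNA models had a last exon of 13267 nt, against 4280 nt in the RefSeq model of Tmem245, and ended 8987 nt beyond it. March08 was not matched in the gene tables, but its models overlap March8, a membrane-bound ubiquitin ligase gene. Their last exons were 3509 and 362 nt, against 3516 nt in March8, and they ended 7 and 3154 nt short of it. These 4 models are left out of the counts against hosts.

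Summed over the longest model of each of 112 names, 59.6% of exonic bases lay in host exons, 6.04% in host introns, 5.42% upstream and 28.9% downstream of the host. D10Wsu102e weighed heavily on this sum. Without it the shares were 67.4% in host exons, 6.15% upstream and 19.6% downstream. Leaving out Zfp652 as well brought the upstream share to 2.22%. The median name had 98.5% of its longest model in host exons.

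Beyond the host, the furthest end of a name mostly lay outside other RefSeq genes. In 7 of the 36 names that ended beyond the host it lay inside another RefSeq gene, on the opposite strand in each case. The next RefSeq model past the furthest end, on either strand, lay a median of 19503 nt away (quartiles 3935 and 55706). For those 7 names this distance skips the model that holds the end. The median therefore overstates the distance to the nearest gene. Over all 114 names, 8 shared exonic bases with a RefSeq gene of another symbol on the same strand, 2 of them being Tmem245 and March8 under their other symbols, and 13 on the opposite strand. The same counts were not made for other genes. The largest overlaps on the opposite strand were 3535 nt between pi-Nr2c2.1 and Mrps25, 2554 nt between pi-Hjurp.2 and Heatr7b1, and 1901 nt between pi-Mrs2.1 and Gpld1. Of these, pi-Nr2c2.1 and pi-Hjurp.2 ended at the host end and did not run past it, while pi-Mrs2.1 ended 4999 nt beyond. On the same strand pi-Hjurp.2 contained the whole 3638 nt of 6430706D22Rik. Hjurp encodes the chaperone of the centromeric histone CENP-A.

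RefSeq models of the hosts mostly carried the code XX, which no source used here explains. It was on 138 of 144 host RefSeq models (95.8%), against 35% of RefSeq models of other symbols, and on 97 of 98 Cufflinks models of host symbols (99.0%), against 23.8% of Cufflinks models of other symbols. The exceptions among RefSeq models were both models of Fam53b, those of Hjurp and Pou6f1, and 1 each of Ankrd11 and Ppp1r12b.

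Hosts were spread over many functions. Of the 114 hosts, 86 could be placed in 1 class of textbook function by hand and 28 were left unclassed. Transcription factors were the largest class, with 21 hosts, followed by 14 of kinases and signalling, 12 of RNA binding and translation, 12 of ubiquitin and proteasome, and 10 of chromatin. The smaller classes were membrane traffic with 5 hosts, cytoskeleton and metabolism with 4 each, mitochondrial with 3, and histone genes with 1. No class share of all genes was computed, so these counts say nothing of enrichment.

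The median of the longest last exon per host was 5447 nt in transcription factors (range 3300 to 12097), 6522 nt in chromatin genes (1248 to 17682), 5901 nt in ubiquitin genes, 5882 nt in RNA-binding genes (236 to 14230) and 5125.5 nt in signalling genes (1988 to 8648). Long last exons were thus found in each of these classes. A furthest end beyond the host was seen in 8 of 21 transcription factors, 6 of 14 signalling genes, 5 of 11 ubiquitin genes with a RefSeq model, 3 of 12 RNA-binding genes and 1 of 10 chromatin genes. Among chromatin hosts other than Ankrd11, the longest RefSeq last exon ran from 2660 nt in Phf20 to 8246 nt in Cbx5. These hosts were Cbx5, Dnmt3a, Tet3, Nsd1, Ing5, Phf20, Hjurp, Rad54l2 and Mllt6. The furthest end of each of these names lay within 50 nt of the RefSeq end. Other models ended short of it, 3 of 5 in Nsd1, 2 of 3 in Ing5, and 1 each in Cbx5, Phf20, Hjurp and Rad54l2. In Ankrd11 both models ended 733 nt beyond the host, whose RefSeq last exon was 515 nt. Counted as the longest per host, short last exons were few. The shortest belonged to compact hosts, with 155 nt in Lsmd1, 236 nt in the ribosomal protein gene Rplp1 and 312 nt in the ferritin gene Fth1.

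Gene-named models were built unlike the 218 piRNA models named by cytogenetic band. Gene-named models had a median of 8 exons and a last exon of 3511 nt, against 2 exons and 5333.5 nt in band-named models. The last exon made up a median of 70.8% of the spliced length in gene-named and 94.8% in band-named models. Their difference was described and not tested.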

How the data were processed

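Per the labels, CAGE (2 libraries) and PAS-Seq (1 library, read length 100 nt) were run on total RNA of testes, and the submitters' processing notes name TopHat2 2.0.4 and mm9. No source used here gives the authors' assembly, naming or filters. The deposited table has 12 columns and no header, and its values are positions and exon sizes in nt (unit: other), with no count or level.

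Starts and ends were compared along the strand with a tolerance of 50 nt, the end with the furthest and the start with the nearest RefSeq position of the host symbol. Introns matched by exact coordinates. Positions are counted from 1. Shares have exact Clopper-Pearson 95% intervals from scipy 1.17.1 (Python 3.11.15), and figures were drawn with matplotlib 3.10.9. The geometry was tested on simulated shifts of RefSeq models. No test was run, because the table has no replicates.

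Genes were named by rule: the 10 hosts with the longest last exons, the furthest ends beyond and short of RefSeq, the furthest starts in either direction, the most new introns and the most models, plus single-exon names and names with no RefSeq model. The remaining genes were named after their values were seen, and 1 host taken by the rule is counted but not reported here. The models, the function classes and the rule were chosen with earlier results of these data known. Of the 114 symbols, 105 were current and 7 older in the RefSeq gene table, and 2 (BC026590 and March08) were not matched. 1 further model named for Hist1h1a has the code PI and is no member.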

Additional observations from a re-analysis of the deposited data

How the results depend on the processing

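Of 58 values recomputed under other settings, 41 moved by less than their interval and 17 by more. The share of starts away from RefSeq depended on the tolerance: it was 44.1% at 50 nt, 80.8% at 10 nt, 33.1% at 200 nt and 23.7% at 500 nt. With the longest model of each name only, 31.25% ended beyond the host (20.8% over all models), 34.8% started away, 35.7% had a longer last exon (22.0% over all models) and 94.8% of introns were host introns, and the medians were 5208 nt for the last exon and 7440 nt for the spliced length. Against host RefSeq models with a code other than XX, which leaves 8 models, 37.5% ended beyond, 75% started away, 37.5% had a longer last exon, 62.5% had all introns in the host, 45.5% of introns were shared, 0% held a host intron in the last exon, and the median spliced length was 7095 nt. The stricter promoter motif was in 42% of host promoters in place of 75%. Matching hosts also by overlap and leaving out Ip6k1, both added after the data were seen, moved no value past its interval. The cause was not tested in any of these. No paired analysis was possible because each group has 1 library and no result comes from a test. With no reads or levels analysed here, the support behind an end or a start is unknown, so a rare end counts as much as a common one. Neither coding regions nor untranslated regions are marked in the table.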

Other observations

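Some hosts lay next to each other. With at most 200000 nt between their piRNA models, 8 pairs of names covered 16 of the 114 names. The closest were Acvr2b and Exog, a mitochondrial nuclease gene, with 3050 nt between the end of pi-Acvr2b.1 and the start of the pi-Exog models on the same strand. Zyg11a and Zyg11b, related substrate receptors of a ubiquitin ligase, followed with 9832 nt, also on the same strand. Rc3h1, an RNA-binding ubiquitin ligase gene, and Zbtb37 lay on opposite strands with 27948 nt between them. Their ends face each other, and that of pi-Zbtb37.1 lies inside Serpinc1. The remaining pairs were BC026590 with D730040F13Rik, Cbl with Hinfp, Zfp346 with Nsd1, Zfp652 with Igf2bp1, and Hic2 with Crkl, at 57428 to 188536 nt. The number of such pairs among other genes was not computed.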
